A study of Mus musculus with 5 samples.

Results

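Induction of primordial germ cell-like cells from parthenogenetic embryonic stem cells was followed at the level of DNA methylation, by setting the library of the induced cells (pESC-PGCLC) beside that of the stem cell line they came from (pESC). The CpG regions compared were those listed in all 5 libraries of the study, which gave 154711 of the 176303 regions listed in any library. The cells were mouse, of the C57BL6 strain in every group, and CpG methylation was read by reduced representation bisulfite sequencing, which samples CpG-rich fragments released by MspI digestion. The pESC line derives from an egg without a sperm genome. To make pESC-PGCLC, stem cells were kept in a 2i medium with less MEK inhibitor, turned into epiblast-like cells for 46 h with activin A and bFGF, and cultured for 4 days in floating aggregates with BMP4 at 500 ng/ml, LIF, SCF and EGF. Cells carrying both CD61 and SSEA1 were then sorted. The pESC were maintained on feeder cells in serum with LIF, and the labels do not say which medium the sequenced stem cells came from. The same induction of a biparental line (ESC-PGCLC from female ESC) and primordial germ cells (PGC) taken with SSEA1 beads from E12.5 gonads gave the other 3 libraries. Each group was 1 library of 1 line or collection, so every value below compares 2 libraries and carries no replicate error, and no test was possible. Read depth is unknown, because the files give levels without read counts. pESC were cultured with feeder cells and pESC-PGCLC were sorted, so a change within cells and a change in the mixture of cells cannot be told apart.

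In the mouse embryo, germ cells are set aside from the epiblast under BMP signals and then lose most of their DNA methylation on the way to and within the gonad, while a subset of retrotransposons, such as IAP elements, keeps much of it. Imprinted regions carry methylation on the allele from one parent, and in an egg-derived genome both alleles bear the maternal pattern. Promoters of many germline genes are methylated in somatic cells and are demethylated late in germ cell development.

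The promoters of 4 genes show the kind of CpG sequence whose levels are reported below. They are printed because their islands carried an imprinted gene's methylation (Plagl1), a germline gene's larger loss (Sycp1 and Dpep3), or a germline gene's near-equal levels in both libraries (Mael, chosen after its values were seen). Each is the 250 bases before the gene start from RefSeq, build GRCm38.p6 (mm10), read 5' to 3' on the gene's strand, in lower case with CpG sites in capitals. Plagl1 lies at chr10:13090582-13090831 on the plus strand, all 250 bases inside the measured island, and holds 19 CpG sites. Mael lies at chr1:166238745-166238994 on the minus strand with 18 CpG sites and 221 of its bases inside the island. Sycp1 is at chr3:102936101-102936350 on the minus strand with 17 CpG sites, and Dpep3 at chr8:105979420-105979669 on the minus strand with 10. In each of these 2 genes 130 of the bases fall inside the island.
Plagl1: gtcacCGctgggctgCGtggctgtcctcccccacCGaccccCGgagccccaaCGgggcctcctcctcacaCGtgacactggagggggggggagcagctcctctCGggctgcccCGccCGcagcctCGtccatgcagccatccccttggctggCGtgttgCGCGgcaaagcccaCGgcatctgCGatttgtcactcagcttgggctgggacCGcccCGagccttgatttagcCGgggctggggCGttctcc
Mael: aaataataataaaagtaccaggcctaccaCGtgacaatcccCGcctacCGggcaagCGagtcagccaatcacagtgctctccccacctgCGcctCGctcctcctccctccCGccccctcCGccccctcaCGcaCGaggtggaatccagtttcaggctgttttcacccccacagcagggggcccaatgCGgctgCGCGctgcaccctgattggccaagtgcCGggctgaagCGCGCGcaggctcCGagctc
Sycp1: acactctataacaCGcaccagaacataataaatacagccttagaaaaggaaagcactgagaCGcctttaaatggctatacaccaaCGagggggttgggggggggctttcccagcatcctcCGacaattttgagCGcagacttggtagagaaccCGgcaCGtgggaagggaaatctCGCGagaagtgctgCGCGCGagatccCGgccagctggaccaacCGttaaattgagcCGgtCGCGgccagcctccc
Dpep3: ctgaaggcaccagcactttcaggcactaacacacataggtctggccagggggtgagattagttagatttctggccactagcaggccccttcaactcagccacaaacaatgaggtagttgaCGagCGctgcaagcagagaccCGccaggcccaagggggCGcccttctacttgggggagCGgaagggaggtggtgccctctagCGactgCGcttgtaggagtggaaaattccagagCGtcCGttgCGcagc

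Methylated sequence was lower in pESC-PGCLC in 7 of the 8 region classes by the mean, and the loss was a small share of the starting level. Repeats had a mean level of 43.2% in pESC-PGCLC, against 46.3% in pESC, over 46641 entries, which is a difference of -3.11 percentage points or 6.72% of the pESC level. Introns stood at 25.1% against 27.8%, a loss of 9.80% of the starting level and the largest share of any class over all regions. In regions of at least 50% in female ESC the order changed, with losses of 10.2% in 5' UTRs, 8.56% in exons and 8.23% in introns. Exons stood at 19.4% against 21.4% and lost 9.42%. The 3' UTRs, at 35.9% against 38.5%, lost 6.67%. Most entries moved in the same direction in these 4 classes: between 63.5% (exons) and 74.9% (introns) were lower in pESC-PGCLC.

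Promoters averaged 14.6% in pESC-PGCLC and 15.9% in pESC over 20388 entries, and 55.2% of them were lower. Shores, the flanks of CpG islands (CGIs), averaged 12.1% against 12.9%, and 5' UTRs 4.32% against 4.52%. In 5' UTRs 43.5% of entries were lower and the median of the differences was 0.0931 points, opposite to the mean. CGIs, the dense CpG stretches found at most gene starts, were almost free of methylation in both libraries, with means of 3.59% in pESC-PGCLC and 3.55% in pESC and medians of 1.65% and 1.49%. The CGI difference of 0.0354 points changed sign, to -0.0879 points, once the mean CHH level was taken out. CHH cytosines, which lie outside CpG sites and report unconverted or non-CpG methylated bases, were higher in pESC-PGCLC by 0.123 to 0.136 points in every class. In CGIs their mean was 0.709% against 0.586%.

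**Figure D1:**
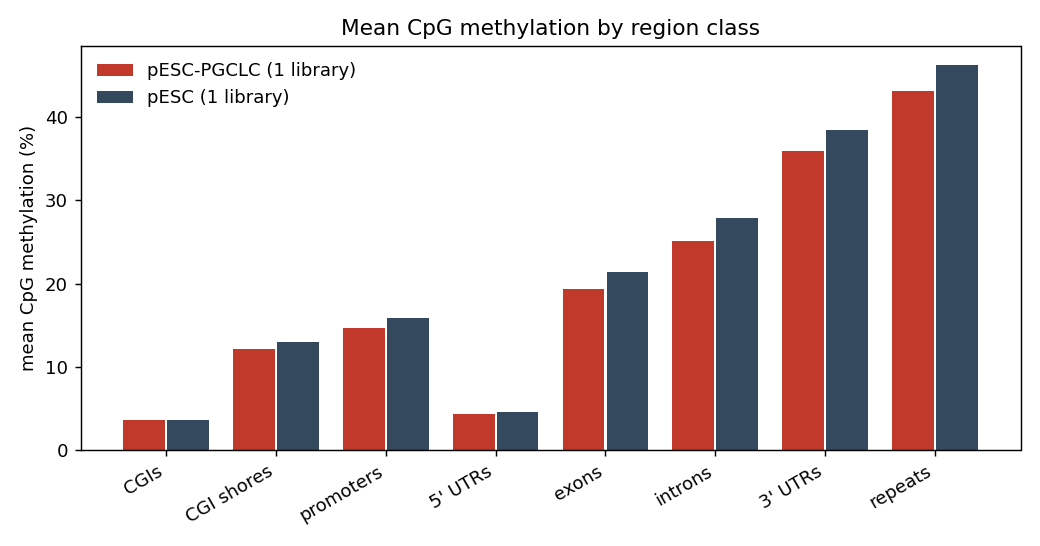
Mean CpG methylation in percent (vertical axis) for each of the 8 region classes, with the pESC-PGCLC library left of the pESC library in each pair and 1 library per bar, so no error bar. Repeats stand at 43.2% against 46.3%, while CGIs stand at 3.59% against 3.55%.

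In each class the loss in points grew with the methylation level of a region, up to the bin of 50 to 70%. Regions were binned by their level in female ESC, a library outside the comparison, so that the bin did not share the measurement of the starting level. Among CGIs of 0 to 10% in female ESC the mean was 1.92% in pESC-PGCLC, against 1.76% in pESC, over 13382 islands. Among CGIs of 70 to 100% it was 66.1% against 71.4% over 105 islands, of which 95.2% were lower. CGIs of 30 to 50% and of 50 to 70% lay between, at differences of -2.15 and -4.32 points.

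In introns and exons the share lost was largest at 10 to 30%. Introns of 10 to 30% in female ESC stood at 17.6% in pESC-PGCLC, against 20.3% in pESC, a loss of 13.3% of the starting level, while introns of 70 to 100% stood at 64.4% against 68.5% and lost 6.01%. Repeats of 30 to 50% lost 8.31%, and those of 70 to 100% lost 5.15%. The least methylated repeats, at 0 to 10% in female ESC, were higher in pESC-PGCLC, at 8.36% against 7.68%.

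**Figure D2:**
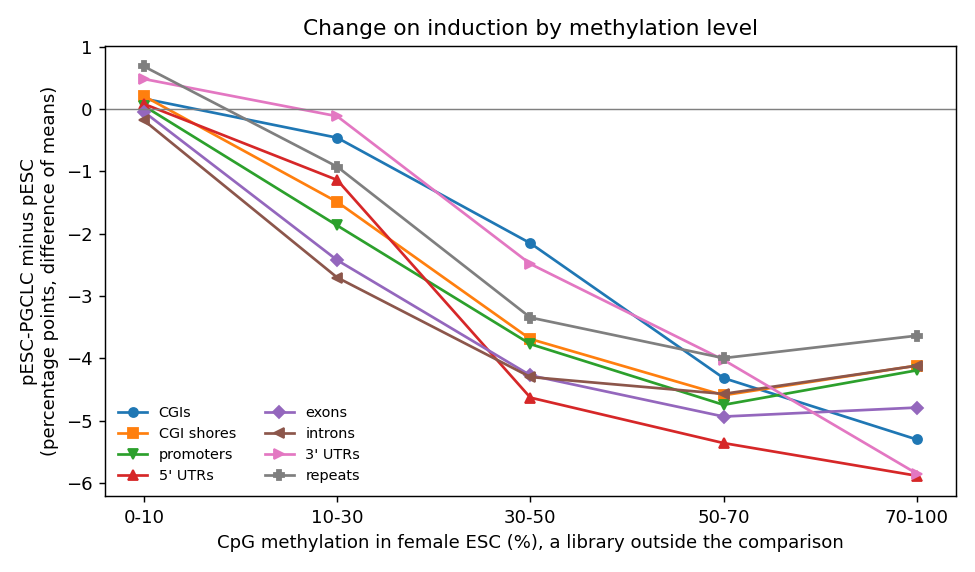
Difference of mean CpG methylation in percentage points, pESC-PGCLC minus pESC (vertical axis), by the region's level in female ESC in percent (horizontal axis, 5 bins), with 1 line per region class. Repeats run from 0.685 points in the lowest bin to -4.00 points at 50 to 70% and -3.64 points at 70 to 100%, and CGIs reach -5.30 points in the highest bin.

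Imprinted genes with maternally inherited methylation that were methylated in pESC at the region measured were still methylated after induction. Of 19 genes listed, 16 had a measured CGI or shore at a gene end, of which 10 were lower and 6 higher in pESC-PGCLC, and none passed 25 points. The 6 higher include Slc38a4, Grb10 and Gnas, whose regions at the gene end were near 0 in both libraries. A difference of at least 25 points in either direction is called here, and over all 8 classes 0.365% of regions were called lower and 0.143% higher. The members' median level was 29.5% in pESC-PGCLC and 39.1% in pESC, and their median difference was -1.94 points. Over the 12078 protein-coding genes with a region the median difference was 0.134 points. Over the 263 of them with at least 30% in female ESC it was -4.65 points, with 229 lower.

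The methylated members include islands that were higher after induction. Airn, a long noncoding RNA that represses Igf2r on the same chromosome, had an island at 62.1% in pESC-PGCLC and 61.2% in pESC. Kcnq1ot1, a noncoding RNA that silences neighbours in the Kcnq1 domain, was at 75.0% against 67.7%, the largest gain of the list, and lies at chromosome 7, 143295404 to 143295824. These 2 islands, and that of Zrsr1, which encodes a splicing-related protein, at 43.0% against 41.0%, were higher in pESC-PGCLC. Neighbouring regions went both ways. The shore before the Kcnq1ot1 island (143293403 to 143295403) was at 40% against 50%. Another shore, which overlaps that island (143294312 to 143296312), was at 74.3% against 67.2%. A second Zrsr1 island (chromosome 11, 22973116 to 22973331) was at 21.5% against 31.1%. The Zrsr1 shores differed by -7.46, 1.09, -2.39 and 0.619 points, and the mean difference over all 6 regions at Zrsr1 was -2.62 points.

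Losses were seen at the other methylated islands of this list. Peg13, a noncoding RNA within Trappc9, was at 74.2% in pESC-PGCLC and 77.8% in pESC. Peg3, which encodes a zinc finger protein, was at 58.8% against 65.7%. Nap1l5 was at 53.4% against 56.1%. Peg10 and Sgce share 1 island, which was at 34.3% against 39.1%. The gene counts and medians above enter this island under both genes. Plagl1, whose promoter is printed above, was at 22.7% against 28.7%, a loss of 20.8% of its starting level. Nnat was at 24.8% against 25.5%. The Nnat shores went both ways, with differences of -1.60 points before the island and 5.42 points after it. The mean difference over all 3 regions at Nnat was 1.04 points, opposite to that of the island.

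Gnasas1, the antisense RNA of the Gnas cluster, had the largest loss. Its shore at chromosome 2, 174295261 to 174297261 was at 21.1% in pESC-PGCLC and 40.9% in pESC, a difference of -19.9 points. The adjoining island inside Gnas, at 174297262 to 174297532, was at 44.7% against 64.4%, while the longer Gnas island at 174298463 to 174300644 was at 56.0% against 58.4%. The differences were thus -19.9 and -19.7 points at adjoining regions and -2.33 points at the next island. A shore that holds the whole short island and overlaps the Gnasas1 shore (174296462 to 174298462) was at 58.6% against 62.9%, a difference of -4.27 points. Inpp5f was at 8.94% against 12.0% and Mcts2 at 4.90% against 6.14%. Slc38a4 was at 4.11% against 3.74%, Grb10 at 1.93% against 1.59% and Gnas at 3.25% against 2.77%, all near 0 at the region tied to the gene.

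Inside some of these genes lie further islands that the gene-end rule did not use. The island within Grb10 was at 22.6% in pESC-PGCLC and 20.5% in pESC, that within Inpp5f at 41.8% against 48.6%, and the Impact island at 47.1% against 49.4%. A Mest shore was at 48.4% against 53.7%. Together, 11 imprinted islands of at least 30% in PGC averaged 53.7% in pESC-PGCLC and 57.2% in pESC, a difference of -3.53 points. The other 344 islands of at least 30% in PGC averaged 49.6% against 53.1%, a difference of -3.55 points. The imprinted islands lost 6.17% of their level and the others 6.68%, with median differences of -2.65 and -3.89 points. The imprinted mean rests on the short Gnas island: without it the other 10 differed by -1.92 points and lost 3.39%. In the libraries outside the comparison the same 11 imprinted islands averaged 13.4% in ESC-PGCLC, 18.5% in female ESC and 46.0% in PGC.

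Genes listed with paternally inherited methylation, and hosts of imprinted RNAs, were unmethylated in both libraries at the region measured. Dlk1 was at 2.12% in pESC-PGCLC and 1.27% in pESC, and Rasgrf1 at 2.14% against 1.42%. In female ESC these regions were at 1.28% and 2.23%, so low levels there were not particular to the egg-derived line. A second Dlk1 island (chromosome 12, 109459744 to 109460028) was at 22.4% against 24.3%, and at 35.0% in female ESC. H19, Meg3 and Zdbf2 had no region at the outermost RefSeq gene ends. An island at a Zdbf2 promoter inside those ends was at 1.98% against 1.34%. Igf2r was at 1.71% against 0.795% and Trappc9 at 2.45% against 1.57%.

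Methylated germline genes had lower levels in pESC-PGCLC, as most other methylated genes did. Of 40 listed genes, 25 had a region, of which 16 were lower, 9 higher and none called, and the median level was 19.3% in pESC-PGCLC and 20.9% in pESC. The 11 members of at least 30% in female ESC were all lower, with a median difference of -3.97 points, beside 229 of 263 protein-coding genes of that level and their median of -4.65 points. Fkbp6, which takes part in piRNA-directed silencing, had a shore at its outermost RefSeq end at 41.3% against 54.0%, a difference of -12.7 points, but the adjoining island, which holds RefSeq promoter bases of the gene, was at 46.3% against 50.4%. Tdrd1, a Tudor domain protein of the germ granule, had a shore at 57.6% against 68.4%, and another shore, which holds promoter bases, at 43.0% against 49.0%. Dpep3, a testis-expressed dipeptidase gene, was at 59.3% against 69.4%. Sycp1, a component of the synaptonemal complex that holds meiotic chromosomes together, was at 21.8% against 28.3%.

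Levels of these 4 genes in PGC were 41.7%, 49.2%, 54.4% and 23.2%, so the Sycp1 island and the Fkbp6 shore lay slightly below PGC after induction, while the Fkbp6 island, at 43.1% in PGC, lay above it. Mael, a piRNA pathway gene, was at 21.8% in pESC-PGCLC and 22.5% in pESC. The E-box word CACGTG, read on either strand as it is its own complement, occurs in 19 of 42 RefSeq promoter windows of this list, or 45.2%, against 7.15% of all 32851 windows of 300 bases. TGCCGC or its complement GCGGCA, the word recognised by the imprint-maintaining factor ZFP57, occurs in 8 of 25 windows of the maternal list, or 32.0%, against 11.6% of all windows. In the other lists the TGCCGC share ran from 0% (primed epiblast, 7 windows) to 60% (germ cell specification, 5 windows). It was 40% in pluripotency genes (10 windows) and 23.8% in germline genes, so it was not particular to the maternal list. A match is a description of the letters only.

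**Figure D3:**
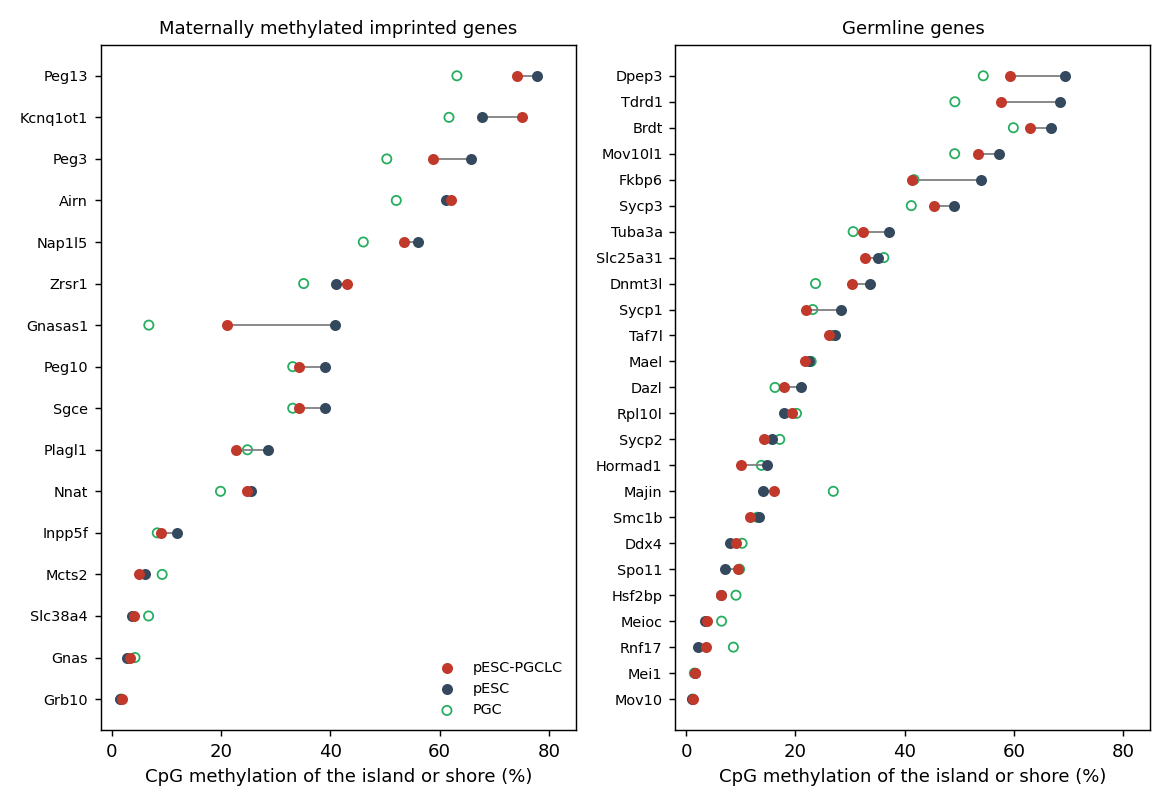
CpG methylation in percent (horizontal axis) of the island or shore tied to each measured maternally methylated imprinted gene (left) and germline gene (right), with a filled red point for pESC-PGCLC, a filled dark point for pESC and an open green point for PGC, 1 library each. Gnasas1 has the longest gap on the left, 21.1% against 40.9%, and the Fkbp6 shore the longest on the right, 41.3% against 54.0%.

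Most regions of marker genes were nearly unmethylated in every library, so methylation there does not tell cell types apart. Fut4 was the main exception among 5 of 8 measured germ cell specification genes, with an island at 15.2% in pESC-PGCLC and 21.2% in pESC. Prdm1, the regulator of germ cell fate, had a shore at 2.09% against 3.40%. Prdm14 was at 1.81% against 1.33% and Kit, the SCF receptor, at 1.25% against 1.18%. The 4 measured pluripotency genes were Sox2 (1.40% against 1.36%), Klf4 (1.68% against 1.59%), Tbx3 (1.58% against 1.71%) and Klf2 (1.69% against 1.37%).

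All 6 primed epiblast genes were slightly higher, by a median of 0.318 points, with Fgf5 at 2.32% in pESC-PGCLC and 1.82% in pESC. Most protein-coding genes with a region were also higher, 7683 of 12078. With the mean of all regions in the gene, the median of the primed epiblast list was 0.00597 points. Otx2 was at 1.23% against 0.875%, Dnmt3b, a de novo methyltransferase, at 1.81% against 1.41%, and Wnt3 at 2.55% against 2.27%. These differences, of at most 0.491 points, stand beside a CHH difference of 0.123 points in CGIs, whose part in them was not tested. Of the 8 of 11 measured genes of the methylation machinery, Dnmt3l, the germ cell cofactor of de novo methylation, had a methylated shore, at 30.3% against 33.7%. Tet2 was at 1.57% against 1.23% and Trim28 at 1.34% against 1.12%.

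Among 8 of 9 measured gonadal somatic genes, Tcf21 had a shore at 40.6% in pESC-PGCLC and 36.3% in pESC, and the Nr5a1 shore stood at 64.0% in both. Emx2 was at 3.88% against 5.07%, Lhx9 at 4.27% against 3.57% (its shore with RefSeq promoter bases was at 47.9% against 58.2%) and Sox9 at 2.09% against 1.55%. The 4 measured of 6 feeder fibroblast genes were Thy1 (3.60% against 2.28%), Pdgfra (1.83% against 0.556%), Twist1 (1.76% against 1.45%) and Vim (1.31% against 1.49%). The 4 measured of 5 trophoblast genes were Tfap2a (3.00% against 3.97%), Hand1 (2.67% against 1.86%), Eomes (1.67% against 1.11%) and Cdx2 (1.33% against 1.39%).

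Repeats held most of the methylated sequence, and nearly all subfamilies were lower in pESC-PGCLC. Of 159 subfamilies with at least 50 entries, 158 had a lower mean and 1 a higher one. LINE/L1 elements, the main autonomous retrotransposons, averaged 48.1% in pESC-PGCLC and 51.4% in pESC over 21176 entries, a loss of 6.38%. LTR/ERVK elements, which include IAP, lost 5.53%, and at the other end LINE/CR1, LINE/L2 and LTR/ERVL lost 9.19%, 9.10% and 8.64%.

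IAP and ETn elements, endogenous retroviruses that are still mobile in mice, lost a smaller share than the ERVK class they belong to. Some other highly methylated elements did so too, but not all. IAP elements averaged 65.3% in pESC-PGCLC and 67.7% in pESC over 935 entries, a loss of 3.66%. ETn elements averaged 59.0% against 60.4% and lost 2.21%. RLTR6-int and RLTR1B-int together lost 2.73%, MMERVK10C-int 3.41%, and all repeats of 70 to 100% in PGC 3.12%. In contrast, L1MdA_II, at 60.3% in pESC, lost 6.14%, and the ERVK subfamily RLTR27, at 59.5% in pESC, lost 6.43%. Young L1 families (A, Tf and Gf) averaged 50.5% against 53.7% and lost 5.93%, and the older L1Md families F, N and V averaged 48.5% against 51.8% and lost 6.31%. MERVL and all MT2 subfamilies together averaged 38.8% against 42.5% over 371 entries and lost 8.85%. The MT2A and MT2B subfamilies gave 124 and 123 of these entries, so the value is not that of MERVL alone.

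Young L1 entries that start in the first 1000 bases of the consensus, where the promoter lies, stood at 56.5% in pESC-PGCLC and 60.1% in pESC, and those that start after base 5000 at 44.9% against 47.7%. Their shares lost, 6.0% and 5.80%, were close. Entries carry no genomic position, so copies cannot be told apart within a family.

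The largest losses by subfamily were at RLTR20C2_MM (38.1% in pESC-PGCLC, against 43.6% in pESC, 50 entries), RMER17A (35.9% against 40.9%), Lx4A (44.2% against 48.9%), RCHARR1 (45.0% against 49.7%) and L1M5 (41.3% against 45.8%). RMER17C was the subfamily with a higher mean, at 26.6% against 25.4% over 54 entries. The other small differences were at RLTR31D_MM (28.0% against 28.4%), ORR1B1 (38.1% against 39.2%), RLTR1B-int (48.5% against 49.7%) and ID (39.1% against 40.4%).

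**Figure D4:**
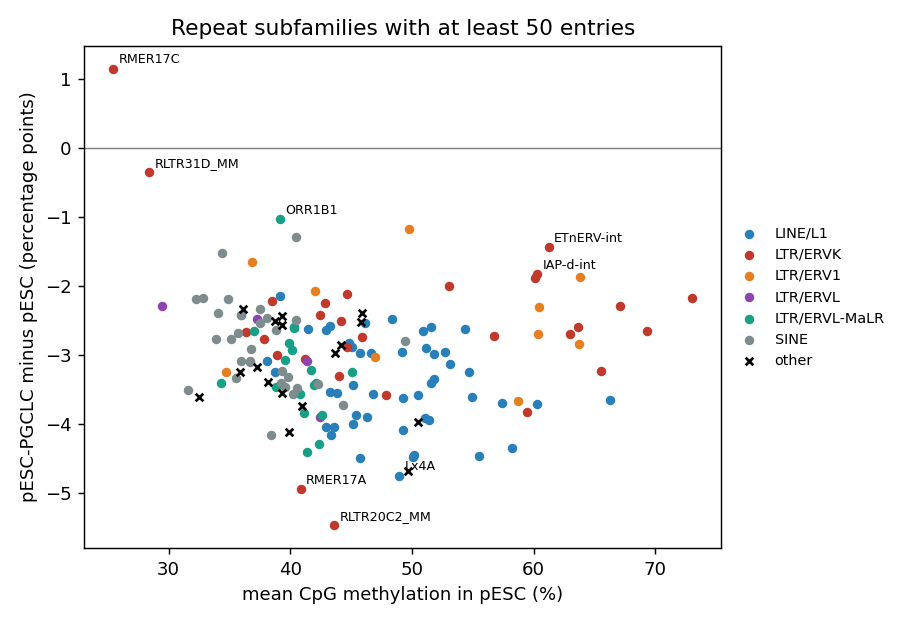
Difference of mean CpG methylation in percentage points, pESC-PGCLC minus pESC (vertical axis), against the mean level in pESC in percent (horizontal axis) for the 159 repeat subfamilies with at least 50 entries, coloured by repeat class. RLTR20C2_MM is lowest at -5.46 points and RMER17C is the 1 subfamily above 0, at 1.14 points; the axes share the pESC level.

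Differences of 25 points or more were rare. In all, 565 regions were called lower and 222 higher, or 347 lower and 287 higher after pESC levels were scaled by the ratio of the class means. Repeats made up 410 of those lower (0.879% of repeats) and 158 of those higher (0.339%). The 3' UTRs followed, with 33 lower (0.742%) and 10 higher (0.225%). Exons had 41 lower (0.198%) and 16 higher (0.0773%), introns 26 (0.13%) and 16 (0.0801%), promoters 27 (0.132%) and 8 (0.0392%), and 5' UTRs 10 (0.0858%) and 2 (0.0172%). Calls were thus most frequent in the 2 most methylated classes. Among CGIs 4 were lower (0.0281%) and 1 was higher (0.00704%), and among shores 14 were lower (0.0839%) and 11 higher (0.0659%). The largest differences short of the threshold were at islands of Syt7, at -23.6 points, and Anp32a, at 14.5 points, and at shores of Kmt2d and Prkag1 at -24.5 points and of Ftx, a noncoding RNA gene of the X inactivation centre, at 24.3 points.

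The island at Sil1 was at 3.23% in pESC-PGCLC and 33.3% in pESC. An island listed on the Y chromosome was at 46.2% against 71.9% (Y, 90825140 to 90829322). An egg-derived line has no Y chromosome, and where the reads placed there come from was not tested. An island on chromosome 17 with no gene within 1000 bp was at 28.9% against 54.3% (6639689 to 6639907), and that of the gene model Gm16372 at 24.5% against 49.5%. The Rgl3 island, at 29.0% against 0%, was the one called higher, and it drops out when levels of exactly 0 or 100% are left out.

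The shores with the largest losses were those at Gm1943 (10% in pESC-PGCLC, against 57.1% in pESC), Sgcd (25% against 62.5%), Csnk1e (30.4% against 67.6%), Agk (7.89% against 42.9%) and Gm8034 with Syvn1 (17.2% against 51.8%). The largest gains were at Gm40332 with Sfswap (100% against 38.8%), Speg (63.6% against 11.1%), Dnah7c (48.3% against 3.06%), Ccnd3-ps with Mrto4 (56.9% against 19.6%) and Zfp612 (61.5% against 24.3%). Round values such as 25%, 62.5% or 100% can come from few reads, which the files do not give.

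The biparental line, which shares no library with this comparison, lost a larger share in each class as a whole. In regions of at least 30% in PGC, repeats lost 6.50% of the pESC level on the way to pESC-PGCLC, against 9.26% of the female ESC level on the way to ESC-PGCLC, over 35319 entries. The widest gap was in 3' UTRs, at 6.57% against 11.0%, and the narrowest in exons, at 8.72% against 10.5%. At low levels the order turned in introns: those of 10 to 30% in PGC lost 13.4% in the parthenogenetic line and 11.5% in the biparental line, and introns of 0 to 10% lost 7.34% and 0.441%. The order also turned in exons and promoters of 0 to 10% and, by small margins or in few entries, in introns and 5' UTRs of 70 to 100%. More introns were lower in the parthenogenetic line, 74.9% against 71.3%. Of the 159 subfamilies, 151 lost a smaller share in the parthenogenetic line. Since each line is 1 pair of libraries, whether the lines differ was not tested.

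**Figure D5:**
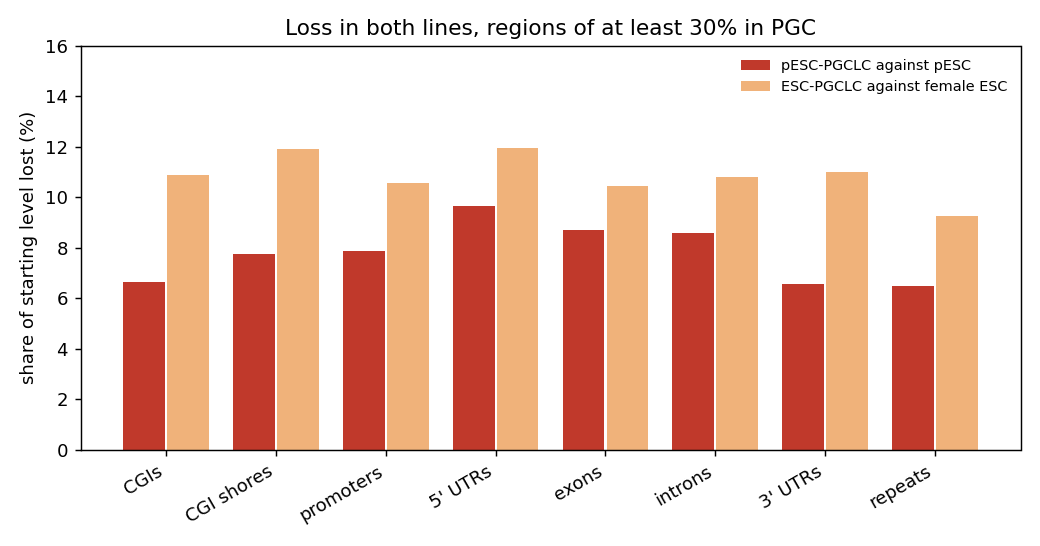
Share of the starting level lost in percent (vertical axis) in regions of at least 30% in PGC, for pESC-PGCLC against pESC and for ESC-PGCLC against female ESC, by region class, 1 pair of libraries per bar. The pESC line is lower in all 8 classes, for example 6.50% against 9.26% in repeats.

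After induction the same regions stood above PGC by 2.18 points (CGIs) to 3.46 points (3' UTRs) in pESC-PGCLC, against 5.73 points (CGIs) to 7.60 points (exons) in pESC. Across regions the 2 lines' changes had a Pearson correlation between 0.118 (repeats, 35319 entries) and 0.334 (CGIs, 355 islands), given as a description. In the biparental line 0.928% of regions were called lower and 0.335% higher. Of the 565 regions called lower in pESC-PGCLC, 117 (20.7%) were also among the 1435 called lower in ESC-PGCLC (8.15%). Of the 222 called higher, 49 (22.1%) were among its 519 (9.44%). By any amount, 375 of the 565 were lower in the biparental line and 108 of the 222 higher. Among repeats, 262 of the 410 called lower were lower in the biparental line, beside 79.6% of all repeats.

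Among the regions called in both lines, 6 were islands or shores. The island listed on the Y chromosome and the Gm16372 island were lower in both, at 32.5% in ESC-PGCLC against 72.2% in female ESC and at 33.8% against 59.8%. A Stt3b shore was at 8.12% in pESC-PGCLC against 41.4% in pESC, and at 26.5% in ESC-PGCLC against 85% in female ESC. A Gm39273 shore was at 0% against 32.1% and at 0% against 27.3%. The Dnah7c shore was higher in both, at 54.6% in ESC-PGCLC against 12.3% in female ESC, and so was that at Ccnd3-ps and Mrto4, at 51.5% against 21.9%. In PGC these last 2 shores were at 46.6% and 51.9%, near the levels of both kinds of induced cells.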

How the data were processed

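For each region and cytosine context the authors deposited 1 fraction between 0 and 1, named a ratio of methylation per the file headers; percentages here are 100 times that fraction. Per the submitters' processing notes, Bismark 0.16.3, Bowtie2 and the build mm10 were used; the sources used here give neither the role of each, nor a coverage filter, nor how regions were drawn. No read counts are given, so depth and counting error are unknown.

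CG regions listed in all 5 libraries were compared as pESC-PGCLC minus pESC in 8 classes, with Python 3.11.15, pandas 2.3.3 and numpy 2.4.6; scripts were tested on simulated data. Share lost is the difference of class means over the pESC mean. A region is called at 25 points, with no test. Genes were tied to the longest CGI overlapping either outermost gene end within 1000 bp (RefSeq, GRCm38.p6, no strand), otherwise the longest shore. Coordinates are as deposited, their counting base not stated. The Ensembl IDs of promoters, exons, introns and UTRs were paired with 0 symbols, so those classes are given as means and counts.

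The members and the gene lists were chosen with earlier results of these data known. Named are all measured imprinted members, up to 4 members of each other list with the largest difference, up to 10 CGIs and 5 shores called in each direction, and the 5 subfamilies with the largest and the smallest loss. Mael, Nr5a1, MMERVK10C-int, Igf2r, Trappc9, the regions inside genes or at other promoters, the regions just under 25 points and the regions called in both lines were added after values were seen. Alternatives changed the regions entered, levels at exactly 0 or 100%, the summary, the CHH background, the threshold, the overall shift and the region tied to a gene.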

Additional observations from a re-analysis of the deposited data

Results flagged for a closer look

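Some results pointed in opposite directions in the 2 lines, which share no library; the difference between the lines was not tested. The CGI mean was 0.0354 points higher in pESC-PGCLC than in pESC, while that of ESC-PGCLC was -0.237 points relative to female ESC. The CGI difference in the parthenogenetic line turns negative when CHH is taken out. For single regions, only called islands and named shores with at least 5 points in each line were considered.

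Shores at 3 places were lower in pESC-PGCLC and higher in ESC-PGCLC than in the parent line. The Csnk1e shore differed by -37.2 points in the parthenogenetic line and 9.81 points in the biparental line, the Agk shore by -35.0 and 12.6 points, and the shore at Gm8034 and Syvn1 by -34.6 and 11.1 points. Shores at 2 places went the other way. The shore at Gm40332 and Sfswap differed by 61.2 points in the parthenogenetic line and -31.2 points in the biparental line, and the Speg shore by 52.5 and -39.1 points. The Gm40332 shore was listed at 100% in both pESC-PGCLC and female ESC, and read numbers behind these levels are unknown.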

How the results depend on the processing

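The direction of the class means of shores, promoters, exons, introns, 3' UTRs and repeats was negative under every alternative run. With the median of the per-region differences, the values were 0.141 points in CGIs, -0.140 in shores, -0.123 in promoters, 0.0931 in 5' UTRs and -0.610 in exons. With CHH taken out they were -0.0879 in CGIs and -0.327 in 5' UTRs. The share lost in CGIs, negative over all islands, was 7.88% for islands of at least 50% in female ESC, 2.96% with CHH taken out and 6.66% for islands of at least 30% in PGC, the last chosen after seeing the data.

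Calls over all classes moved with the threshold. At 10 points 8589 regions were lower and 1988 higher, and at 40 points 111 and 59. With regions listed in both libraries of the comparison 1028 were lower and 462 higher, and with the class factor taken out 347 were lower. When the mean of all regions in a gene replaced the gene-end region, list medians turned to -0.511 points (hosts of imprinted RNAs), -0.386 (paternally methylated), -0.595 (germ cell specification), -0.801 (gonadal soma) and -0.522 (trophoblast). In these cases the cause was not tested. Of 209 alternative values, 151 stayed within 1.5 times the main value and in its direction, 48 moved further and 10 reversed direction. Leaving out the short Gnas island, an alternative chosen after seeing the data, moved the imprinted islands' difference of -3.53 to -1.92 points. No paired analysis was possible because each group has 1 library and the labels give no replicate numbers.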

Other observations

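CpG islands and shores of low methylation had a higher mean in pESC-PGCLC on the X chromosome and, by less, on the autosomes. Over 341 X-linked islands of at most 10% in female ESC, the mean was 2.11% in pESC-PGCLC and 1.66% in pESC. Over 13039 such autosomal islands it was 1.92% against 1.76%. The split by direction was similar in both: 31.7% of the X-linked islands were lower (108, with 233 higher). Of the autosomal ones 34.5% were lower (4497, with 8535 higher). X-linked shores of this kind averaged 4.11% in pESC-PGCLC and 3.07% in pESC over 288 shores, against 3.62% and 3.43% over 10810 autosomal shores. In the biparental line the X-linked islands were at 1.84% in ESC-PGCLC and 1.88% in female ESC, and the X-linked shores at 3.55% and 3.10%. PGC had 2.68% at the X-linked islands and 4.26% at the X-linked shores. Methylated X-linked islands, of at least 30% in female ESC, were lower in pESC-PGCLC by a mean difference of -5.02 points over 13 islands, beside -3.56 points over 411 autosomal islands.

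The loss showed no steady order by CpG number in the promoter window of 300 bases. Among genes with a region of at least 30% in female ESC, those with 0 to 4 CpG sites in the window differed by -5.07 points, those with 5 to 9 by -3.63 points, those with 10 to 19 by -4.55 points and those with 20 or more by -3.30 points.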
